A study of Mus musculus with 12 samples.

Results

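The constitutive proteasome subunits were described here as 34 genes out of 19252 in the gene table of mouse liver RNA. They were the genes whose symbols consist of Psma, Psmb, Psmc or Psmd and a number. The pattern matched 39 symbols. Psmb8, Psmb9 and Psmb10, which replace catalytic subunits in the immunoproteasome, and Psmb11, a thymus subunit, were left out by name. Psma8, a testis subunit, was left out because its mean over the 12 libraries, 0.383 TPM (a share of transcripts corrected for their length), was below 1. The lowest gene kept was Psmd10 at 5.32 TPM. All 34 passed the floor used for testing. The 14 Psma and Psmb genes encode the core particle and the 20 Psmc and Psmd genes encode the regulatory particle or its assembly factors.

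The libraries were made from total liver RNA of C57BL/6 mice, 4 in each of 3 groups. The NFD group received a normal fat diet and the HFD group a high fat diet. The NAC_HFD group received the high fat diet together with the antioxidant N-acetylcysteine (NAC), at 2 g per litre of drinking water. The labels give 14 weeks of feeding and an age of 8 weeks for every library, without saying when the age applies, and do not give sex, diet composition or any pooling of animals. No group received NAC on the normal diet. Since nothing states that the libraries came from separate animals, p-values measure the spread between these libraries, which may in part be technical.

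The proteasome is the large protease that degrades most short-lived and damaged proteins in the cytosol and nucleus, usually after they have been tagged with ubiquitin chains. Its core particle is a barrel of stacked rings: the outer rings of alpha subunits (Psma genes) gate entry, and the inner rings of beta subunits (Psmb genes) carry the protease sites. The regulatory particle caps the barrel, where ubiquitin receptors and scaffold subunits (Psmd genes) bind and process the substrate and a ring of ATPases (Psmc genes) unfolds it. Subunit genes are known to be induced together by the transcription factor NRF1, the product of Nfe2l1, when proteasome capacity falls short. In liver the related factor NRF2, the product of Nfe2l2, can raise some of them during oxidative stress.

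Because these genes are often described as a group under shared control, promoter windows from base -250 to base 50 around each start site were searched on both strands. The RefSeq promoter table (GRCm38.p6) held windows for 28 of the 34 genes, 30 windows in all, out of 32851. The antioxidant response element core, TGACNNNGC, to which NRF1 and NRF2 bind, was found in 5 members, or 16.7% of member windows against 12.4% of all windows. The NF-Y box, CCAAT, stood in 11 members, or 36.7% against 37.4% of all windows. The ETS core, CCGGAAG, stood in 10 members, or 36.7% of member windows against 8.86% of all windows. The palindrome bound by alpha-Pal, an unrelated factor that is also called NRF1, was found in the window of Psma2 alone, 3.33% against 0.971%. These matches are letters in a window and show no binding.

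The windows below are a selection from members whose values are followed library by library in the comparisons. Each is 60 bases long, 5′ to 3′ on the gene's strand, with the matched motif in capitals. The windows of Psmb5 and Psmd9 hold the antioxidant response element core, at bases -47 and -31 from the start site. The window of Psmd6 holds the ETS core at base -45, and that of Psmd4 (bases -130 to -71) holds the ETS core at -125 and the NF-Y box, on the opposite strand, at -95. The window of Psmd5, whose p was the smallest of the members in both comparisons with NFD, held none of the motifs searched. Other members with values given library by library also held motifs in windows not shown here. They include Psmb6, with the antioxidant response element core at base -9, and Psma1, Psma2, Psmd10 and Psmd14, with the NF-Y box.
Psmb5, chr14:54617996-54618055, minus strand: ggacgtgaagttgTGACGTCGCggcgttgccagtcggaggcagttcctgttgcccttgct
Psmd9, chr5:123228130-123228189, plus strand: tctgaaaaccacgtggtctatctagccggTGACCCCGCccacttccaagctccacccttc
Psmd6, chr14:14120946-14121005, minus strand: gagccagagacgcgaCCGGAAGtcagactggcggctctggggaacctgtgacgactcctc
Psmd4, chr3:95042685-95042744, minus strand: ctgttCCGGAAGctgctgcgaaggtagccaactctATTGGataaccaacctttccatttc

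TPM is adjusted for transcript length, so levels of different genes can be set side by side. The core genes stood above the regulatory genes, with median levels of 71.2 and 45.2 TPM. Within the core the alpha ring had a median of 78.3 TPM over 7 genes and the beta ring 70.2 TPM over 7 genes. Within the regulatory particle the 6 ATPases had a median of 51.5 TPM and the 11 non-ATPase subunits 43.3 TPM. The 3 assembly chaperones Psmd5, Psmd9 and Psmd10, which help build the base of the regulatory particle and leave it before it is complete, had a median of 8.99 TPM.

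The most abundant transcript of the set came from Psmb6, which encodes the caspase-like protease subunit. It stood at 129.8, 128, 159 and 131 TPM in NFD replicates 1 to 4, at 136, 133, 135 and 125 in HFD and at 126, 120.5, 118 and 132 in NAC_HFD. The library values overlapped between all groups, and NFD replicate 3 was the highest. The 2 other catalytic genes were lower in every library. Psmb7, the trypsin-like subunit, gave 80.1, 84.05, 88.2 and 73.7 TPM in NFD, 81.5, 88.7, 86.9 and 77.7 in HFD and 77.1, 68.1, 69.6 and 75.3 in NAC_HFD. Psmb5, the chymotrypsin-like subunit and the main target of proteasome inhibitor drugs, was the lowest of the 3 at a mean of 58.3 TPM. The non-catalytic beta genes had means of 50.1 (Psmb1), 43.3 (Psmb2), 72.2 (Psmb3) and 70.2 TPM (Psmb4).

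Among the alpha genes, Psma4 was highest, at 86.8, 85.2, 97.5 and 81.1 TPM in NFD, 98.04, 94.1, 91.1 and 76.3 in HFD and 76.7, 76.2, 83.1 and 72.1 in NAC_HFD. Its groups overlapped. Psma3, Psma7, Psma6 and Psma1 followed with means of 80.00, 78.9, 78.3 and 69.7 TPM. The 2 lowest core genes were both alpha genes. Psma5 gave 38.2, 31.4, 46.4 and 38.5 TPM in NFD, 36.8, 39.1, 35.3 and 31.4 in HFD and 29.8, 25.4, 32.8 and 33.96 in NAC_HFD. Psma2 gave 24.4, 20.9, 26.4 and 22.8 TPM in NFD, 23.9, 23.96, 22.9 and 17.8 in HFD and 20.7, 19.7, 20.1 and 19.1 in NAC_HFD. All 4 NAC_HFD values of Psma2 lay below all 4 NFD values, and 1 HFD library, replicate 4, lay lower still. The alpha and beta subunits occur in equal numbers in the assembled ring, whereas the levels of their transcripts spanned 21.9 to 131 TPM.

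In the regulatory particle the ATPase gene Psmc3 was highest, with 59.5, 57.4, 87.9 and 66.4 TPM in NFD, 75.3, 71.8, 63.4 and 72.7 in HFD and 68.7, 56.6, 61.01 and 71.8 in NAC_HFD. These ranges overlapped throughout. The other ATPase genes had means of 47.1 (Psmc1), 52.6 (Psmc2), 50.5 (Psmc4), 35.97 (Psmc5) and 61.6 TPM (Psmc6). Psmd4, which encodes a ubiquitin receptor, had the highest mean of the Psmd genes at 64.01 TPM. The scaffold genes Psmd1 and Psmd2 had means of 47.7 and 53.2 TPM. Psmd14, the deubiquitinase that removes the ubiquitin chain from the substrate, was lowest of the non-ATPase subunits at 26.6 TPM, below its partner Psmd7 at 39.5 TPM. The remaining non-ATPase genes, structural subunits of the lid and its surroundings, had means of 43.3 (Psmd3), 39.6 (Psmd6), 61.97 (Psmd8), 58.7 (Psmd11), 34.9 (Psmd12) and 30.3 TPM (Psmd13). Psmd10, which encodes the chaperone gankyrin, gave the lowest levels of all, 4.69, 6.42, 6.04 and 4.94 TPM in NFD, 6.21, 6.02, 4.53 and 5.27 in HFD and 4.31, 4.79, 5.50 and 5.15 in NAC_HFD, with overlapping groups.

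**Figure D1:**
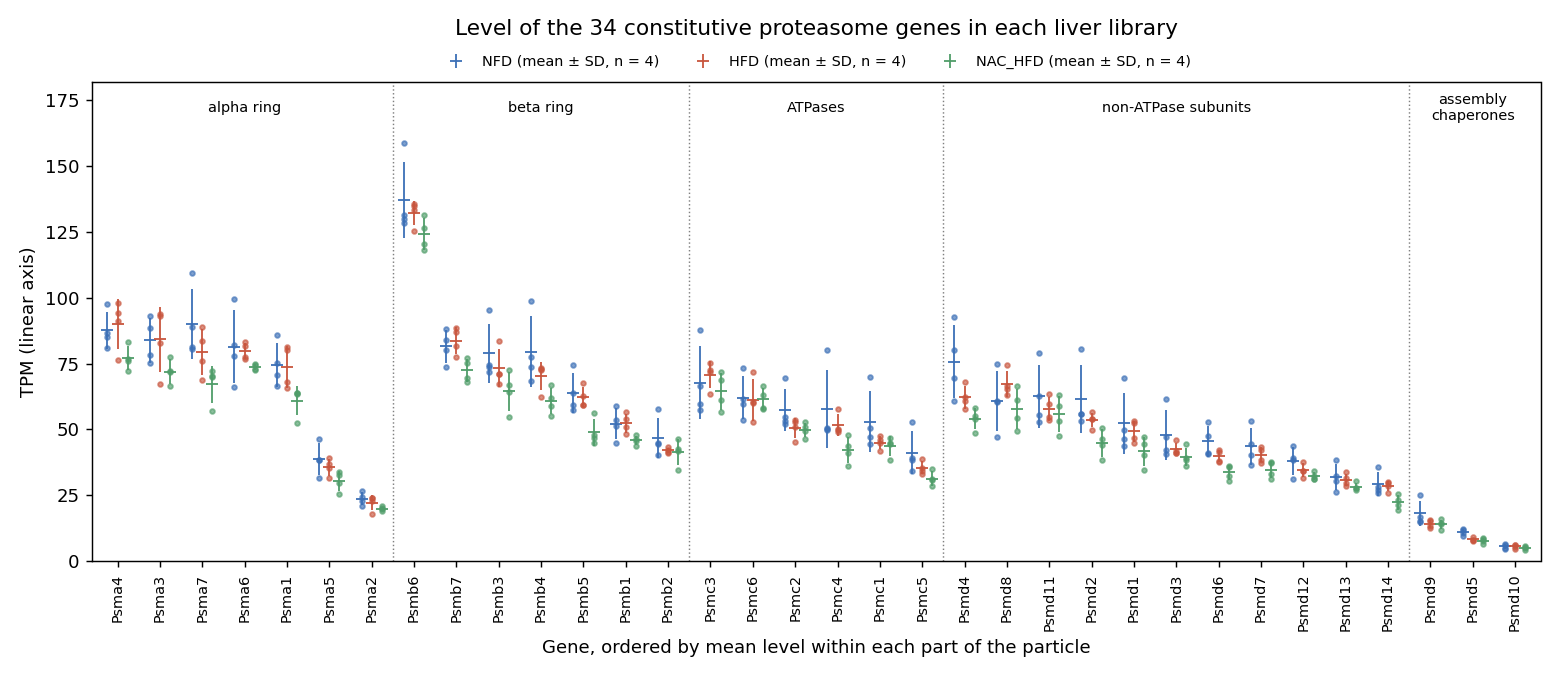
Level of each of the 34 proteasome genes in TPM on a linear axis, ordered by mean within each part of the particle, with 1 point for each library and a line at the mean ± SD of each group (n = 4). Psmb6 stands highest at a mean of 131 TPM, and the 3 assembly chaperones Psmd9, Psmd5 and Psmd10 stand lowest.

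2 libraries stood apart for these genes. NFD replicate 3 held the highest of the 12 values in 29 of the 34 members, against 15.9% of all 11376 genes tested. NAC_HFD replicate 2 held the lowest value in 22 of the 34, against 18.3% of all genes. Summed over the 34 members, NFD replicate 3 reached 2350 TPM and NAC_HFD replicate 2 reached 1485 TPM, while the other 10 libraries lay between 1629 and 1939 TPM. The sums made up 0.209% to 0.344% of the gene table. In NFD replicate 3 all 34 members lay above their own median over the 12 libraries, in HFD replicate 1 this held for 33, and in NAC_HFD replicate 2 for 1.

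Some other properties of these libraries were as follows. In NFD replicate 3 the median deviation of all genes tested from their 12-library mean was 0.03 on the log2 scale, against 0.33 for the core and 0.43 for the regulatory particle. In NAC_HFD replicate 2 it was -0.09 for all genes, -0.24 for the core and -0.30 for the regulatory particle. Mitochondrial transcripts made up 9.10% of the gene table in NFD replicate 3 and 11.7% in NAC_HFD replicate 2, within the range of 8.91% to 12.6% over the 12 libraries. The 7 hepatocyte markers were all present, with sums of 35913 to 56070 TPM. The summed level of the erythroid markers, 3 of 3 above 1 TPM on average, was highest in NFD replicate 3 (1218 TPM) and lowest in NAC_HFD replicate 2 (202 TPM). In the other libraries it ran from 306 TPM (NAC_HFD replicate 3) to 971 TPM (NAC_HFD replicate 4). The sum came mostly from the globin genes Hbb-bs and Hba-a1. The remaining marker, Alas2, was not highest in NFD replicate 3. It stood at 45.3 TPM there and 42.5 TPM in NAC_HFD replicate 2, against a mean of 52.9 TPM over the 12 libraries. The part of red cell RNA in the member levels was not tested. The skeletal muscle markers were at or below 0.1 TPM in sum. Values of bulk liver cannot tell fewer cells of a type from less RNA per cell.

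**Figure D2:**
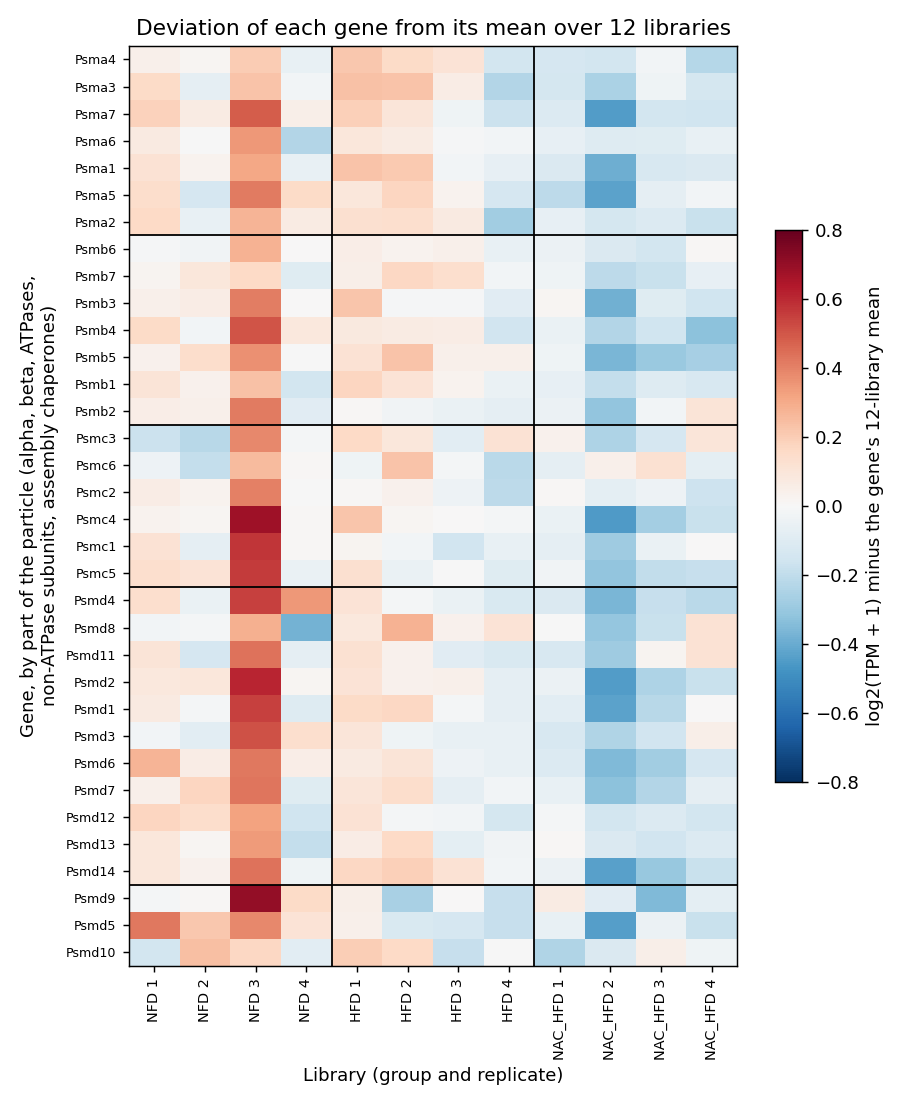
Each cell is the log2(TPM + 1) of 1 gene in 1 library minus that gene's mean over the 12 libraries, red above and blue below the mean, with the genes in rows by part of the particle and the libraries in columns by group. The column of NFD replicate 3 is above 0 in all 34 genes, and that of NAC_HFD replicate 2 is above 0 only in Psmc6.

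The first comparison set HFD against NFD and asks how these genes differed with the high fat diet. No member passed an adjusted p of 0.05 in limma, against 2.78% of all genes tested in either direction, 0.589% lower and 2.19% higher in HFD. By unadjusted p under 0.05 there were 2 members, both lower, against 19.1% of all genes in either direction and 7.3% lower. The log2 fold change was negative for 28 of the 34, against 47.3% of all genes tested, with a median of -0.10 against 0.01 for all genes. The core median was -0.04 and the regulatory median -0.13. Without NFD replicate 3 the median was 0.01 and the negative members numbered 17 of 34, equal to the number of positive ones. The core median was then 0.04 and the regulatory median -0.01. With other scalings of the libraries 30 to 33 of the 34 were negative. The summed adipocyte markers ranged over 4.87 to 32.8 TPM in HFD and 0.08 to 0.58 TPM in NFD. Of the 4, only Cfd was above 1 TPM on average, and it was called higher. Adipoq and Retn had means of 0.021 and 0.019 TPM over the 12 libraries, so the sum was almost all Cfd. The part of these markers in the member values was not tested.

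Psmd5 had the smallest p of the members in this comparison. Its level was 12.2, 10.4, 11.9 and 9.61 TPM in NFD, 9.14, 8.05, 7.97 and 7.67 in HFD and 8.45, 6.25, 8.52 and 7.72 in NAC_HFD. All HFD values lay below all NFD values, the only member for which the groups did not overlap, against 4.57% of all genes in this direction. The log2 fold change was -0.38 ± 0.11 (SE, n = 4 per group) with an adjusted p of 0.0786 in limma, which missed the threshold. It passed with median-of-ratios scaling (log2 fold change -0.40) and with quantile normalization (-0.39), and, in the fit without NAC_HFD replicate 2, Psmd5 was also the 1 member that passed. In its highest library, NFD replicate 1, Psmd5 departed from the other members, which were mostly highest in NFD replicate 3.

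Psmd4, Psmd9 and Psmd6 came next. Psmd4 stood at 69.4, 60.7, 92.6 and 80.3 TPM in NFD, 68.1, 62.4, 60.7 and 57.8 in HFD and 58.03, 48.7, 55.3 and 54.1 in NAC_HFD. NFD replicates 3 and 4 were the highest 2 of its 12 values, and NFD overlapped HFD. Its log2 fold change in HFD against NFD was -0.26 ± 0.12 (SE), with an adjusted p of 0.246, and it was -0.16 without NFD replicate 3. The chaperone gene Psmd9 stood at 14.9, 15.2, 25.1 and 16.9 TPM in NFD, 15.6, 12.4, 15.1 and 13.2 in HFD and 15.9, 14.1, 11.6 and 14.2 in NAC_HFD. Apart from NFD replicate 3 its values ran from 11.6 to 16.9 TPM over all groups, and its log2 fold change of -0.31 ± 0.15 (SE) had an adjusted p of 0.279. Without NFD replicate 3 that value was -0.15. The 6 members with a positive value were Psma3, Psma4, Psmb1, Psmb7, Psmc3 and Psmd8, of which Psmd8, a lid subunit gene, had the largest log2 fold change, 0.16 ± 0.13 (SE, adjusted p = 0.542).

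The second comparison set NAC_HFD against HFD and asks how they differed with NAC in mice on the high fat diet. No member passed an adjusted p of 0.05 in limma, and neither did any of the 11376 genes tested (0%). By unadjusted p under 0.05 there were 6 members, all lower in NAC_HFD, against 16.4% of all genes in either direction and 13.9% lower. The log2 fold change was negative for 33 of the 34 members, against 68.5% of all genes, and Psmc6 at 0.01 ± 0.11 (SE) was the exception. The member median was -0.18 against -0.08 for all genes, with -0.21 in the core and -0.13 in the regulatory particle. Without NAC_HFD replicate 2, 30 of the 34 were negative and the member median was -0.14 against -0.07 for all genes. The core median was then -0.16 and the regulatory median -0.12. With median-of-ratios scaling, which brought the median of all genes to -0.00, 25 of the 34 were negative and the member median was -0.09, with -0.11 in the core and -0.04 in the regulatory particle. With quantile normalization 27 of the 34 were negative, and these medians were -0.12 and -0.04.

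In 8 members all NAC_HFD values lay below all HFD values, and in none above, where 8.66% of all genes lay entirely below. They were the core genes Psma1, Psma6, Psmb1, Psmb5 and Psmb7 and the regulatory genes Psmc4, Psmd6 and Psmd14. Psmb5, on chromosome 14 (54614120 to 54617995), had the smallest p. It stood at 59.2, 63.7, 74.6 and 57.5 TPM in NFD, 62.6, 67.7, 59.3 and 59.4 in HFD and 56.4, 44.6, 46.7 and 47.8 in NAC_HFD. NFD and HFD overlapped, while all 4 NAC_HFD values lay below every value of both. The log2 fold change in NAC_HFD against HFD was -0.35 ± 0.10 (SE), with an adjusted p of 0.137. With median-of-ratios scaling it was -0.25.

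Psmd14 showed the same order of groups. Its values were 28.1, 26.9, 35.9 and 25.7 TPM in NFD, 29.6, 30.1, 28.6 and 25.9 in HFD and 25.4, 19.2, 21.1 and 23.1 in NAC_HFD. The 4 NAC_HFD values were the 4 lowest of the 12. The log2 fold change in NAC_HFD against HFD was -0.35 ± 0.11 (SE, adjusted p = 0.166; -0.26 with median-of-ratios scaling). The alpha gene Psma1 stood at 75.1, 70.7, 85.9 and 66.3 TPM in NFD, 81.2, 80.2, 68.1 and 65.9 in HFD and 63.7, 52.6, 63.3 and 63.8 in NAC_HFD. Its groups HFD and NFD shared a range, NAC_HFD replicate 2 lay far below the other NAC_HFD values, and the log2 fold change in NAC_HFD against HFD was -0.27 ± 0.11 (SE, adjusted p = 0.239; -0.18 with median-of-ratios scaling). At the other end, Psmb2, Psmc2, Psmd9 and Psmc6 had log2 fold changes between -0.03 and 0.01. Their range in NAC_HFD overlapped that in HFD. Of the gene values of Psmc2 and Psmc6, 21.3% and 45.9% came from transcripts of the lncRNA table, and the mRNA transcripts are given separately below.

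The third comparison set NAC_HFD against NFD, using the NAC_HFD and NFD libraries that also enter the first and second comparisons. Psmd4, Psmd5 and Psmd6 were lower in NAC_HFD at an adjusted p under 0.05 in limma. These 3 of 34 members stand against 3.52% of all genes lower, 1.76% higher and 5.28% in either direction. By unadjusted p under 0.05 there were 18 members, all lower, against 22.6% of all genes in either direction and 15.9% lower. The log2 fold change was negative for all 34 members, against 62.5% of all genes, with a median of -0.25 against -0.07, and for 31 to 34 with other scalings. The core median was -0.22 and the regulatory median -0.28, or -0.15 and -0.21 with median-of-ratios scaling. Without NFD replicate 3 no member passed and 31 of the 34 were negative, with a median of -0.16 (core -0.17, regulatory -0.16). Without NFD replicate 3 and NAC_HFD replicate 2, an alternative chosen after the data were seen, none passed, 29 of the 34 were negative and the median was -0.12, while 3.04% of all genes passed. The summed exocrine pancreas markers ranged over 20.4 to 31.5 TPM in NAC_HFD and 9.79 to 17.0 TPM in NFD. Of the 3, Cela1 made up almost the whole sum and was called higher. Cpa1 and Prss2 had means of 0.016 and 0.006 TPM over the 12 libraries. The part of these markers in the member values was not tested.

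The ubiquitin receptor gene Psmd4 fell by 0.47 ± 0.12 on the log2 scale (SE, adjusted p = 0.0385), from a mean of 75.8 ± 13.8 TPM in NFD to 54.01 ± 3.93 TPM (SD, n = 4) in NAC_HFD. The chaperone gene Psmd5 fell by 0.47 ± 0.11 (SE, adjusted p = 0.0289), from 11.04 ± 1.23 to 7.74 ± 1.05 TPM (SD). Psmd4 lies on chromosome 3 (95032688 to 95042614) and Psmd5 on chromosome 2 (34852087 to 34870965) of GRCm38.p6 by RefSeq. For both, the library values given above did not overlap between these groups. Psmd6, a lid subunit gene on chromosome 14 (14112185 to 14120945), stood at 47.5, 40.9, 52.8 and 40.7 TPM in NFD, 41.2, 42.2, 38.2 and 37.6 in HFD and 36.2, 30.4, 32.2 and 35.6 in NAC_HFD. It fell by 0.42 ± 0.10 on the log2 scale (SE, adjusted p = 0.0305), and its NAC_HFD values were the 4 lowest of the 12. The call of Psmd5 was lost without NFD replicate 1 or 3 or NAC_HFD replicate 2 or 4, and that of Psmd6 without any of these 4 or NAC_HFD replicate 3 (highest adjusted p = 0.0801 and 0.0806, both without NFD replicate 1). The call of Psmd4 was lost without any of these 5 or NFD replicate 4 (highest 0.0884, without NAC_HFD replicate 4). It was also lost when any 1 of the 4 HFD libraries, which enter the same fit, was left out, whereas Psmd5 and Psmd6 then still passed. All 3 calls were also lost with no floor and with a fit over the 2 groups alone, and that of Psmd4 with median-of-ratios scaling.

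In 11 members all NAC_HFD values lay below all NFD values, against 8.52% of all genes. Beside Psmd4, Psmd5 and Psmd6 they were Psma1, Psma2, Psma7, Psmb4, Psmb5, Psmc4, Psmd2 and Psmd14. Psmb5 came nearest to the threshold among those that missed it, with a log2 fold change of -0.37 ± 0.10 (SE) and an adjusted p of 0.0521 in limma. It passed with quantile normalization, after rescaling within the gene table and with a floor of 5 TPM. Psma7 (-0.41, adjusted p = 0.0638), Psmd2 (-0.43, 0.0655), Psmb4 (-0.37, 0.0744) and Psmd14 (-0.37, 0.0747) followed. The smallest differences were those of Psmc6 (-0.01), Psmc3 (-0.06) and Psmd8 (-0.06). The 3 members that passed belong to the regulatory particle, while the core and regulatory ranges of fold change, -0.41 to -0.13 and -0.47 to -0.01, overlapped. The difference between the particles was not tested.

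**Figure D3:**
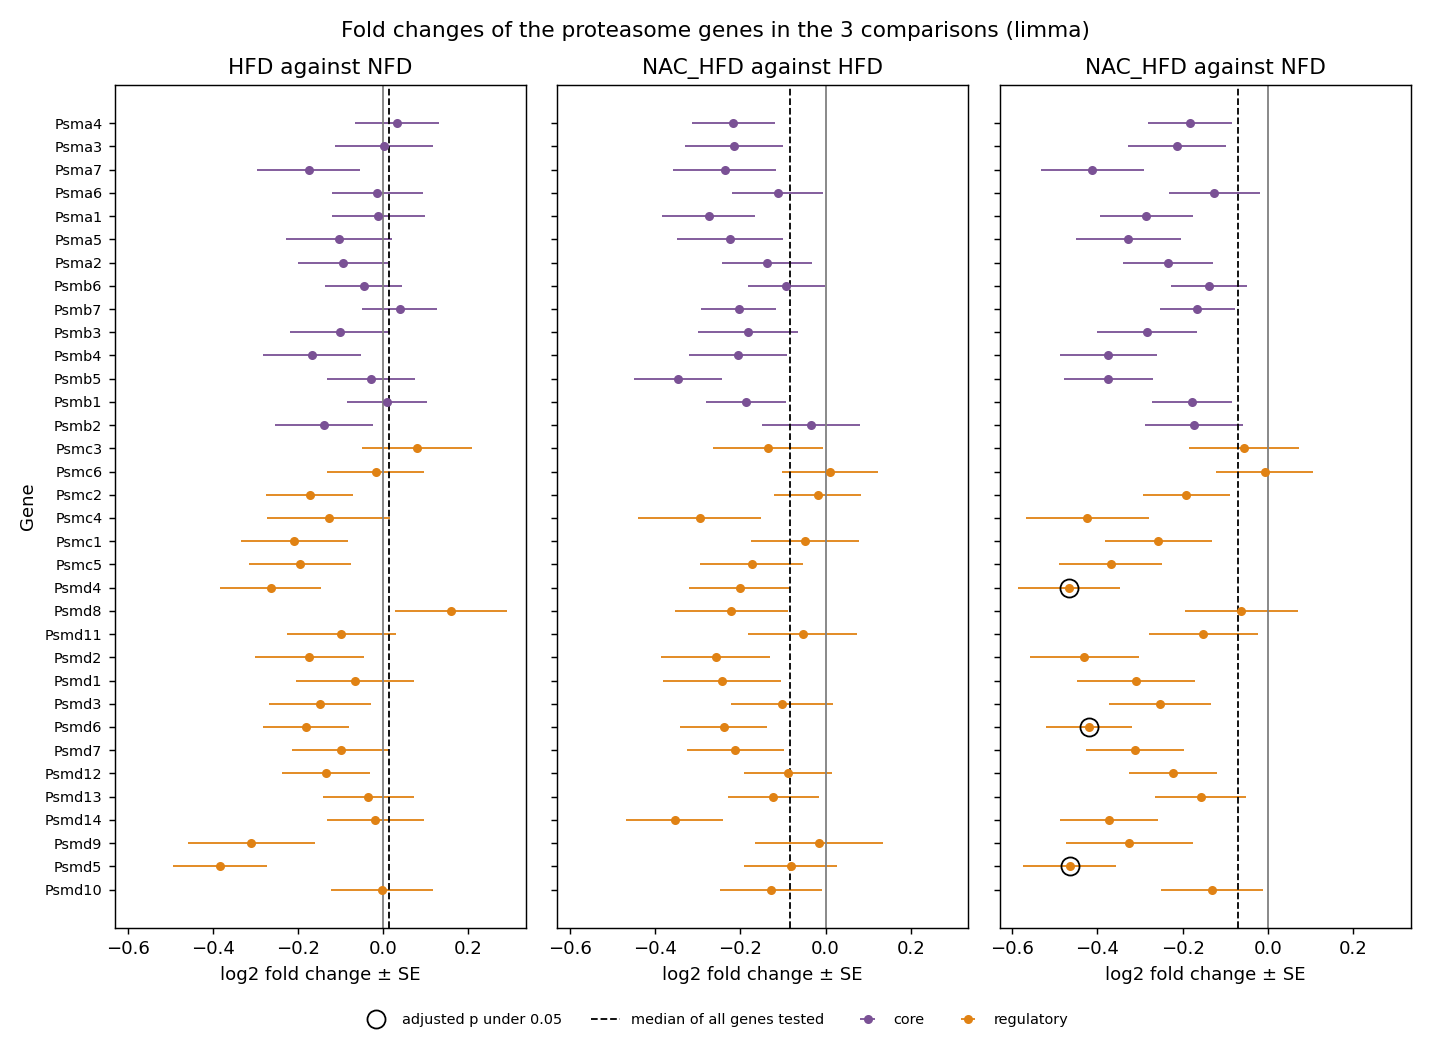
Log2 fold change with its standard error from limma for each of the 34 genes in the 3 comparisons, 4 libraries a group, with the dashed line at the median of all genes tested and circles on the genes past an adjusted p of 0.05. Psmd4, Psmd5 and Psmd6 are circled in NAC_HFD against NFD and no gene is circled elsewhere.

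**Figure D4:**
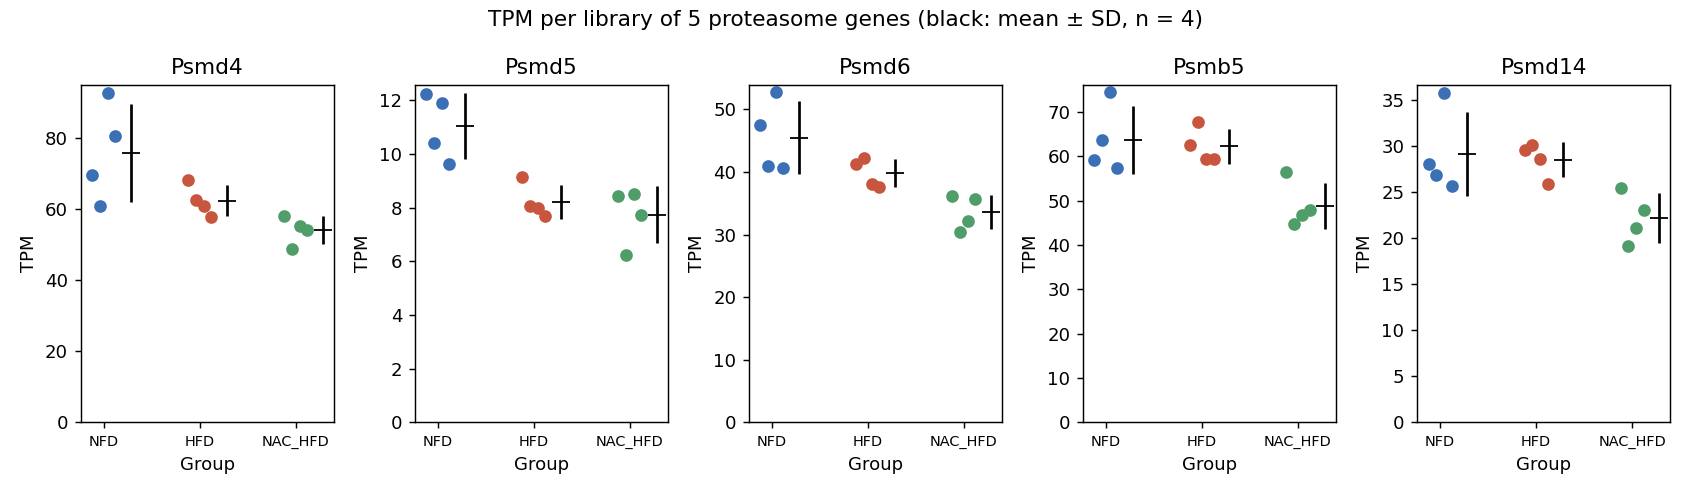
Level in TPM on a linear axis from 0 of Psmd4, Psmd5, Psmd6, Psmb5 and Psmd14 in each of the 4 libraries of NFD, HFD and NAC_HFD, with the mean ± SD of the group in black. The NAC_HFD values of Psmd6, Psmb5 and Psmd14 lie below all others, whereas Psmd5 separates NFD from both other groups.

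On the log2(TPM + 1) scale the core genes averaged 6.09 ± 0.16 in NFD, 6.03 ± 0.11 in HFD and 5.84 ± 0.08 in NAC_HFD (SD, n = 4 each). The regulatory genes averaged 5.35 ± 0.22, 5.23 ± 0.08 and 5.08 ± 0.10 in the same order. For both particles NAC_HFD overlapped HFD, and for both NAC_HFD lay below all NFD values. The balance between the particles was read as the mean log2(TPM + 1) of the 14 core genes minus that of the 20 regulatory genes. It was 0.74 ± 0.06 in NFD, 0.80 ± 0.05 in HFD and 0.76 ± 0.03 in NAC_HFD (SD, n = 4 each). The groups overlapped, with library values of 0.65 to 0.79 in NFD, 0.74 to 0.85 in HFD and 0.72 to 0.80 in NAC_HFD. The lowest value, 0.65, came from NFD replicate 3, where the regulatory genes stood further above their means than the core genes. Without the 3 assembly chaperones the balance was 0.42, 0.46 and 0.43 in NFD, HFD and NAC_HFD. No test was made of this difference.

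**Figure D5:**
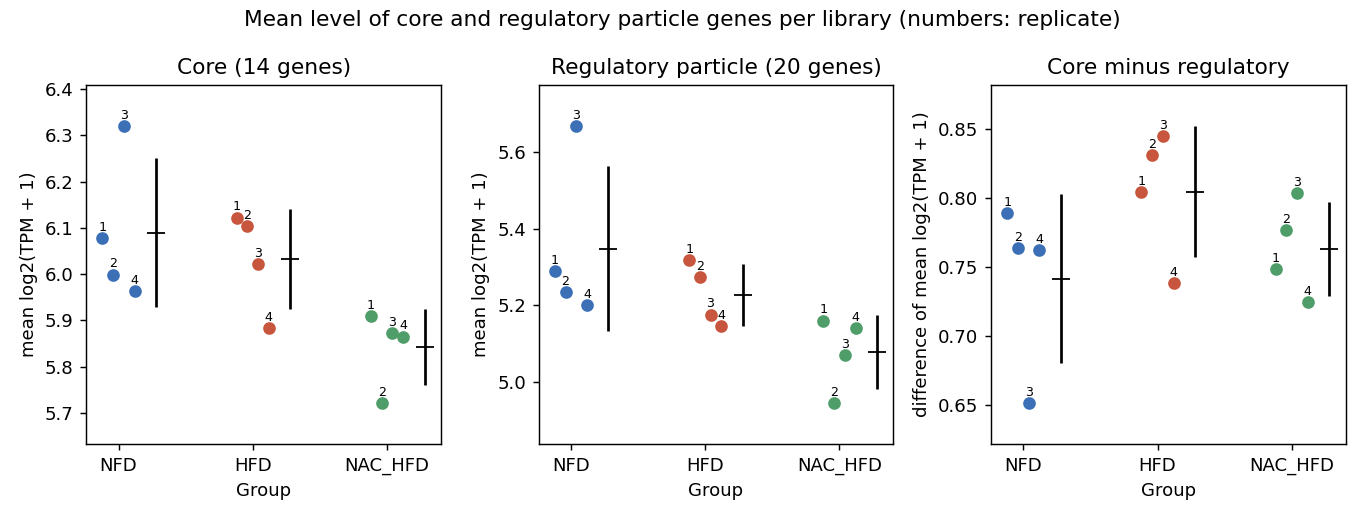
Mean log2(TPM + 1) of the 14 core genes, of the 20 regulatory genes and the difference between these means, in each library, with the replicate number at each point and the mean ± SD of the group in black (n = 4; the axes do not start at 0). NFD replicate 3 is highest and NAC_HFD replicate 2 lowest for both particles, and the difference runs from 0.65 to 0.85.

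The deposited transcript tables split the gene values. The members had 74 mRNA transcripts and 69 transcripts in the lncRNA table, and gene values equalled the sum of their transcripts within 0.02 TPM. In 11 members no transcript stood in the lncRNA table. In 7 members more than 10% of the gene's TPM came from it, namely 45.9% in Psmc6, 32.7% in Psmd13, 25.0% in Psma3, 21.3% in Psmc2, 20.8% in Psmb4, 17.4% in Psmc4 and 12.2% in Psmd6. A gene value of Psmc6 is therefore in large part not a value of protein-coding RNA. The mRNA transcript of Psmc6 averaged 34.7 ± 6.66 TPM in NFD, 34.6 ± 3.44 in HFD and 30.7 ± 4.74 in NAC_HFD (SD, n = 4 each).

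In Psmc2 and Psmb6 the share from the lncRNA table in NAC_HFD did not overlap that in either other group, in opposite directions. In Psma3, Psmb7, Psmc1 and Psmc4 all HFD shares lay below all NFD shares. In Psma1 all NAC_HFD shares lay above all HFD shares. How often shares separate in this way over all genes is not given here, for any of these members. Psmc2 is an ATPase gene with 1 mRNA and 1 lncRNA transcript, and its share was 21.1%, 18.1%, 13.8% and 23.0% in NFD, 18.3%, 17.2%, 18.1% and 21.0% in HFD and 24.8%, 31.2%, 28.6% and 23.6% in NAC_HFD. All NAC_HFD shares lay above all others. In Psmb6 the share was lower in NAC_HFD (2.87% to 4.07%) than in HFD (4.15% to 5.02%) and NFD (4.10% to 6.55%). The mRNA transcript of Psmc2 stood at 46.7 ± 8.94 TPM in NFD, 41.2 ± 3.88 in HFD and 36.3 ± 2.35 in NAC_HFD, and the lncRNA transcript at 10.7 ± 1.24, 9.38 ± 0.233 and 13.5 ± 1.95 TPM (SD, n = 4 each). All genes named in this paragraph were picked out after their values were seen and were not tested at the transcript level.

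Psmd5 was carried mainly by 2 mRNA transcripts. The first had means of 5.69, 5.31 and 4.26 TPM in NFD, HFD and NAC_HFD, and its values overlapped between all groups. The second had 5.04, 3.8, 3.71 and 4.06 TPM in NFD, 2.98, 0.83, 2.54 and 2.19 in HFD and 2.63, 2.35, 3.84 and 2.46 in NAC_HFD. All its HFD values lay below all its NFD values. Psmd4 was carried mainly by 2 mRNA transcripts with means of 41.1 and 29.0 TPM in NFD, 31.5 and 26.5 in HFD, and 29.5 and 21.1 in NAC_HFD. Both were lowest on average in NAC_HFD.

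The authors' deposited table of mRNA transcripts for HFD/NFD lists 1 member transcript among 1110. It is of Psmd3, a lid subunit gene, with a log2 fold change of -1.52, a p of 0.0244 and an adjusted p of 1. The authors' deposited lncRNA table for HFD/NFD lists 1 of 789, the lncRNA transcript of Psmc1, with a log2 fold change of -2.52, a p of 0.00757 and an adjusted p of 1. That transcript was listed at 1.57, 1.45, 2.90 and 3.65 TPM in NFD and at 0, 0, 0.56 and 0.94 TPM in HFD. The authors' deposited tables for NAC_HFD/HFD list no member transcript.

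Genes that work beside these subunits were read from 7 lists. Among inducible and tissue-specific core subunits, 3 of 4 were tested. Psmb8, the immunoproteasome counterpart of Psmb5, rose in HFD against NFD, from 12.9 ± 2.89 to 21.4 ± 3.95 TPM (SD, n = 4), a log2 fold change of 0.70 ± 0.15 (SE, adjusted p = 0.0235). The call was lost without replicate 1 or 4 of either group (highest 0.0851, without HFD replicate 1) and with no floor. No gene of this list passed in the other comparisons. The summed Kupffer cell and macrophage markers, 10 of 10 above 1 TPM on average and none called, ranged over 83.6 to 156 TPM in NFD, 110 to 277 in HFD and 76.2 to 150.2 in NAC_HFD. Their part in the Psmb8 values was not tested.

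Set against the constitutive subunit it replaces, Psmb8 per Psmb5 was 0.2003 ± 0.022 in NFD, 0.345 ± 0.069 in HFD and 0.361 ± 0.036 in NAC_HFD (SD, n = 4 each). The NFD values, 0.179 to 0.229, lay below all values of both other groups. From HFD to NAC_HFD the mean of Psmb8 went from 21.4 to 17.5 TPM and that of Psmb5 from 62.3 to 48.9 TPM. The Psmb8 values in NAC_HFD overlapped those of both other groups. Psmb9 per Psmb6 was 0.0417 ± 0.0094 in NFD, 0.0936 ± 0.0336 in HFD and 0.0708 ± 0.0115 in NAC_HFD, again with NFD below both. For these ratios HFD and NAC_HFD each differed from NFD with p = 0.0286 in a two-sided exact permutation test, the smallest p that 4 against 4 allows, and 0.0643 after adjustment over the 9 tests made. Between NAC_HFD and HFD the exact permutation p was 0.629 for Psmb8 per Psmb5 and 0.314 for Psmb9 per Psmb6 (0.629 and 0.471 after adjustment). Psmb10 per Psmb7 was 0.174 ± 0.026, 0.192 ± 0.029 and 0.208 ± 0.030, in that order, with exact permutation p of 0.457 between HFD and NFD and 0.2 between NAC_HFD and NFD (0.546 and 0.36 after adjustment).

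The list of genes tied to the control or the stress response of the proteasome gave calls in 2 comparisons, and all 10 were tested. Nfe2l1, the gene of NRF1, rose in HFD against NFD, with 39.5, 39.04, 39.7 and 39.5 TPM in NFD and 57.4, 49.5, 47.7 and 56.3 in HFD, and stood at 41.7, 40.5, 39.7 and 45.8 in NAC_HFD. All HFD values lay above all values of the other groups. The log2 fold change in HFD against NFD was 0.41 ± 0.09 (SE, adjusted p = 0.0244), a call lost without NFD replicate 1 or 2 or HFD replicate 1 or 4 (highest 0.1001, without HFD replicate 1). In NAC_HFD against NFD, 2 genes fell. Nfe2l2, the gene of NRF2, stood at 29.7, 34.6, 33.8 and 29.1 TPM in NFD, 32.4, 31.99, 27.8 and 33.2 in HFD and 20.3, 22.2, 26.3 and 24.8 in NAC_HFD. All NAC_HFD values lay below all others, and the log2 fold change against NFD was -0.43 ± 0.10 (SE, adjusted p = 0.0294). The call was lost without NFD replicate 1, 2 or 3 or NAC_HFD replicate 1, 2 or 4 (highest 0.0704, without NFD replicate 3). It was also lost with median-of-ratios scaling, with no floor (0.0535) and with a fit over the 2 groups alone (0.0795). Zfand2a, a zinc finger gene induced by proteotoxic stress, had -0.59 ± 0.12 (adjusted p = 0.0171), a call lost without NFD replicate 1 (0.0505), with a fit over the 2 groups alone (0.0534) and without NFD replicate 3 and NAC_HFD replicate 2 together (0.0652). In NAC_HFD against HFD none of the 10 passed, and in 6 all NAC_HFD values lay below all HFD values, against 8.66% of all genes.

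Among the 6 ubiquitin and E1 enzyme genes, Rps27a, which encodes ubiquitin fused to a ribosomal protein, fell in NAC_HFD against NFD, from 149.9 ± 17.4 to 97.2 ± 6.80 TPM (SD), a log2 fold change of -0.61 ± 0.11 (SE, adjusted p = 0.0102). Its call held when each of the 8 libraries was left out (highest adjusted p = 0.0352). Ribosomal protein genes have many near-identical copies in the genome, so its value is uncertain. Among the 8 genes of the p97 unfoldase, which extracts ubiquitin-tagged proteins for the proteasome, the cofactor gene Ufd1 fell in NAC_HFD against NFD, from 26.4 ± 2.61 to 19.9 ± 2.01 TPM (SD), with a log2 fold change of -0.39 ± 0.10 (SE, adjusted p = 0.0431), a call lost without NFD replicate 1, 3 or 4 or NAC_HFD replicate 1, 2 or 4 (highest 0.117, without NAC_HFD replicate 4). It was also lost with median-of-ratios scaling, with quantile normalization (0.0682), with no floor (0.0709) and with a fit over the 2 groups alone (0.0980). Of the p97 genes 7 of 8 were highest in NFD replicate 3 and 4 of 8 lowest in NAC_HFD replicate 2.

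The other 3 lists held no call in any comparison. These were 5 activator and inhibitor genes, 5 core assembly chaperones and 13 proteasome-bound factors. In HFD against NFD the smallest p fell to Psme1, an activator subunit gene induced by interferon (0.23, adjusted p = 0.129), to Pomp, the maturation factor of the core (0.18, 0.384), and to Adrm1, a ubiquitin receptor (-0.31, 0.201). The median log2 fold changes of these 3 lists were 0.16, 0.09 and -0.05 in HFD against NFD, and -0.19, -0.28 and -0.07 in NAC_HFD against HFD. None of the activator or core chaperone genes was highest in NFD replicate 3, whereas 6 of the 13 bound factors were. In NAC_HFD replicate 2, 4 of the 5 core chaperone genes were at their lowest.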

How the data were processed

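Liver RNA of 12 libraries was compared, 4 each from NFD, HFD and NAC_HFD, with groups and replicate numbers taken from the labels. The submitters' processing notes name fastp, HISAT, RSEM and the build GRCm38, with no versions or settings. The deposited gene, mRNA and lncRNA tables hold TPM values made by the authors, which divide by transcript length and library total, so depth is unknown and no counting interval was given. The authors' deposited comparisons give a ratio, its log2, a p-value and an adjusted p-value, by a test that the file headers do not name.

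From the gene TPM, limma 3.58.1 in R 4.3.3 (lmFit, eBayes with trend and robust) was fitted on log2(TPM + 1) with 3 group means over all 12 libraries (9 residual degrees of freedom). Fold changes are on that scale, which understates those of low genes. Genes needed 1 TPM in at least 4 libraries (11376 of 19252), and two-sided p-values were corrected by the Benjamini-Hochberg method across those genes, with 0.05 as the threshold. The method was tested on simulated data in which each gene varied independently. That test does not cover genes that vary together between libraries, as the members did. HFD libraries enter both diet and NAC comparisons, and NFD libraries 2 of the 3, so the comparisons are not independent. The members and the lists were chosen with earlier results of these data known. Values in every library are given for members past the threshold, for the 4 members with the smallest p in each comparison, for the 2 highest and 2 lowest core and regulatory genes, and for the catalytic genes Psmb5, Psmb6 and Psmb7; list genes are named where they passed, or for the smallest p in HFD against NFD. Other genes were named after their values were seen. Promoters came from RefSeq (GRCm38.p6), and all 34 members matched RefSeq by symbol. Alternatives varied the pseudocount, floor, scaling, moderation, libraries in the fit and the replicate block.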

Additional observations from a re-analysis of the deposited data

Results flagged for a closer look

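Within a group of 4 libraries, the highest or lowest value stood far from the other 3 in 11 of the 111 groups tested (Dixon's ratio of gap to range, above its critical value). Not all of the 111 groups belong to the 34 members, whereas all 11 flagged groups do. Chance flags about 5% of groups when they are independent, whereas the members varied together by library. The share flagged over all genes is not given here, so the count is not read as an excess. Of the 11, 5 were high values in NFD replicate 3, namely Psmb3 (95.5 TPM), Psmb6 (159 TPM), Psmc2 (69.5 TPM), Psmc4 (79.99 TPM) and Psmd2 (80.6 TPM). A pair were low values in NAC_HFD replicate 2, Psma1 (52.6 TPM) and Psma7 (56.8 TPM). In HFD replicate 4, Psma2 (17.8 TPM) and Psmb4 (62.2 TPM) were low. In HFD replicate 1, Psmc4 (57.9 TPM) and Psmd3 (45.97 TPM) were high. Of the 11 values, 7 are thus in the 2 libraries whose member sums stood apart, and 4 are in HFD replicates 1 and 4, whose sums were 1939 TPM, the highest of the remaining 10 libraries, and 1685 TPM.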

How the results depend on the processing

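The number of members past the threshold in NAC_HFD against NFD, 3 in the report, changed with several settings. It was 5 with quantile normalization (Psma7, Psmb5, Psmd4, Psmd5, Psmd6), 1 with the replicate block (Psmd5) and 0 with no floor, with the fit over the 2 groups compared alone and without NFD replicate 3 and NAC_HFD replicate 2 together. Leaving out 1 library at a time gave 0 to 4. It was 0 without NFD replicate 1, NFD replicate 3, NAC_HFD replicate 2 or NAC_HFD replicate 4, and 1 without NAC_HFD replicate 3. In HFD against NFD the number was 1 (Psmd5) with median-of-ratios scaling, with quantile normalization and in the fit without NAC_HFD replicate 2, and 0 under the other settings. In NAC_HFD against HFD it was 0 under all 18 alternatives. Over all genes tested, the number past the threshold in NAC_HFD against NFD was 601 in the report, 188 with the fit over the 2 groups, 289 with no floor and 406 with the replicate block; in HFD against NFD it was 316, with 168 under no floor and 225 under the block. Replicate numbers were taken from the labels. Correlations between the deviations of same-numbered libraries ran from -0.17 to 0.18, which cannot settle whether such libraries were handled together. The replicate block changed no other count of members called, and among the list genes it ended the calls of Psmb8, Nfe2l2 and Ufd1.

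The member medians kept their sign in NAC_HFD against HFD and against NFD. The regulatory median in NAC_HFD against NFD moved from -0.28 to -0.12 without NFD replicate 3 and NAC_HFD replicate 2, was -0.16 without NFD replicate 3 alone and ran down to -0.33 without NFD replicate 4, and in HFD against NFD the core median ran from -0.11 to 0.04 and the regulatory median from -0.19 to -0.01. Core minus regulatory was 0.42, 0.46 and 0.43 in NFD, HFD and NAC_HFD without the 3 assembly chaperones, and 0.82, 0.88 and 0.84 from protein-coding transcripts only. The causes were not tested. Depth limits are unknown, because TPM keeps no read number.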
